A study of Homo sapiens with 12 samples.

Results

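Untreated SUDHL16 cells were compared with untreated SUDHL6 cells, the 2 parental lines from which the study derived venetoclax-resistant lines. Both are established human diffuse large B-cell lymphoma (DLBCL) cell lines, purchased as such, and venetoclax (ABT-199) is a drug that binds and blocks the anti-apoptotic protein BCL2. The comparison used 6 of the 12 RNA-sequencing libraries of the series, all those whose titles and labels placed them in parental cells: CE-25, CE-26 and CE-27 from SUDHL16-parental, and CE-7, CE-8 and CE-9 from SUDHL6-parental. The other 6 libraries, CE-28 to CE-30 and CE-10 to CE-12, came from SUDHL16-resistant and SUDHL6-resistant cells, which had been grown for months in rising venetoclax until they grew at 10 times their first IC50 (the concentration that kills 50% of cells), and served here only to look at the same genes again. Nothing in the labels says that the 3 libraries of a line came from separate cultures, so p-values measure the spread between these libraries, which may be technical.

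Of 60675 gene identifiers counted, the 18690 autosomal protein-coding genes were compared. For SUDHL6 the NEBNext Ultra II RNA kit and an Illumina HiSeq were used, whereas for SUDHL16 the kit was Illumina's Stranded Total RNA Prep (ligation, RiboZero Plus) and the sequencer a NovaSeq. The line, the kit and the sequencer therefore cannot be told apart, and the text turns on very large differences, above all on genes with reads in all libraries of 1 line and next to none in the other. In bulk RNA, fewer cells of a kind and less RNA per cell cannot be told apart either. Levels are in CPM, a library's counts scaled by its total. That total was first multiplied by a TMM factor, a correction for overall differences in composition, so the rescaled totals are not equal between libraries. The factors of the resistant libraries came from a separate fit of those libraries. Fold changes are SUDHL16 against SUDHL6.

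Most DLBCL lines carry the gene programme of germinal centre B cells, the cells that multiply and edit their antibody genes in lymphoid follicles, or that of activated B cells on the way to plasma cells. B cells also display peptides to helper T cells on HLA class II molecules, heterodimers of an alpha and a beta chain (HLA-DR, HLA-DP and HLA-DQ). The invariant chain CD74 escorts them to the endosome, where HLA-DM loads the peptide. Their genes share promoter elements bound by a complex of RFX factors, CREB and the CCAAT-binding factor NF-Y, and the coactivator CIITA, recruited to that complex, switches them on together. Some DLBCL tumours lose class II, and lines differ in it.

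The class II genes moved together in the comparison, so their promoters are shown beside that of CD74, which stayed on in both lines. Each sequence is the 250 bases before the annotated start, from RefSeq on GRCh38.p14 and on the strand of the gene, and capitals mark CCAAT or its reverse ATTGG, the letters of an NF-Y element. The windows lie at chr6:32589849-32590098 on the minus strand for HLA-DRB1, chr6:33075740-33075989 on the plus strand for HLA-DPB1, chr6:32666658-32666907 on the minus strand for HLA-DQB1 and chr5:150412911-150413160 on the minus strand for CD74.

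HLA-DRB1: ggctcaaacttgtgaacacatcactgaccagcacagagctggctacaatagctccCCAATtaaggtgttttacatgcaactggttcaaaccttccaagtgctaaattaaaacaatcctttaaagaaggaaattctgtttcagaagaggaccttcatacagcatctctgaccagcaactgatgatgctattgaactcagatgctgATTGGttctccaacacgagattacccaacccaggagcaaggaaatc
HLA-DPB1: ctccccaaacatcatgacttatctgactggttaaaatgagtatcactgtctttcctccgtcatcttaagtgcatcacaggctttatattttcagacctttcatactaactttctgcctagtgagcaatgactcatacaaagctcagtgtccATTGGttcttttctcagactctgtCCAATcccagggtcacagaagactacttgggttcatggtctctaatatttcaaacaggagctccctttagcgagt
HLA-DQB1: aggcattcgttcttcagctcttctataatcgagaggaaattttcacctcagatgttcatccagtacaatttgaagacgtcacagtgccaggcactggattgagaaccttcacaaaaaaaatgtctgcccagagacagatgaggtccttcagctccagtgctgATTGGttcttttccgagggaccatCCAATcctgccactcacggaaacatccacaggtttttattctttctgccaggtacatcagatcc
CD74: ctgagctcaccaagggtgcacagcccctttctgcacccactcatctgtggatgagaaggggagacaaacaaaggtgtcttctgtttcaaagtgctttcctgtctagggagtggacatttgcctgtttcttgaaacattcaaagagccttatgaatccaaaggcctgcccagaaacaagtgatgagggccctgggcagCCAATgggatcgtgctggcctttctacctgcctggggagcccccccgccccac

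HLA-DRB1, HLA-DPB1 and HLA-DQB1 each held 2 such matches, and CD74 held 1. The same letters stood on either strand in 5010 of the 14502 promoter windows of that length (34.5%), so a match is a description and not a site. The letters GCAACAG, searched on both strands and not overlapping the former, were in none of the 4 windows and in 436 of all windows (3.01%).

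SUDHL16 and SUDHL6 differed in a large share of their transcriptomes. With edgeR's quasi-likelihood test, 539 of 11851 genes tested were at least 16-fold higher in SUDHL16 (4.55%) and 333 were at least 16-fold lower (2.81%), together 7.36%, at an adjusted p under 0.05. At the 1.5-fold limit used by the study, 2647 genes (22.3%) were higher and 2931 (24.7%) lower, together 47.1%, with a median log2 fold change over all genes of -0.05. Scaling by library totals alone moved that median to 0.25 and the 1.5-fold split to 3507 higher and 2107 lower, so moderate differences depended on the scaling, whereas the 16-fold split was then 601 higher and 309 lower. Leaving out CE-26 left 510 higher (4.2%) and raised the genes lower to 994 (8.19%) of 12138 tested. Leaving out any of the SUDHL6 libraries CE-7, CE-8 or CE-9 gave 220 to 224 genes lower.

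**Figure D1:**
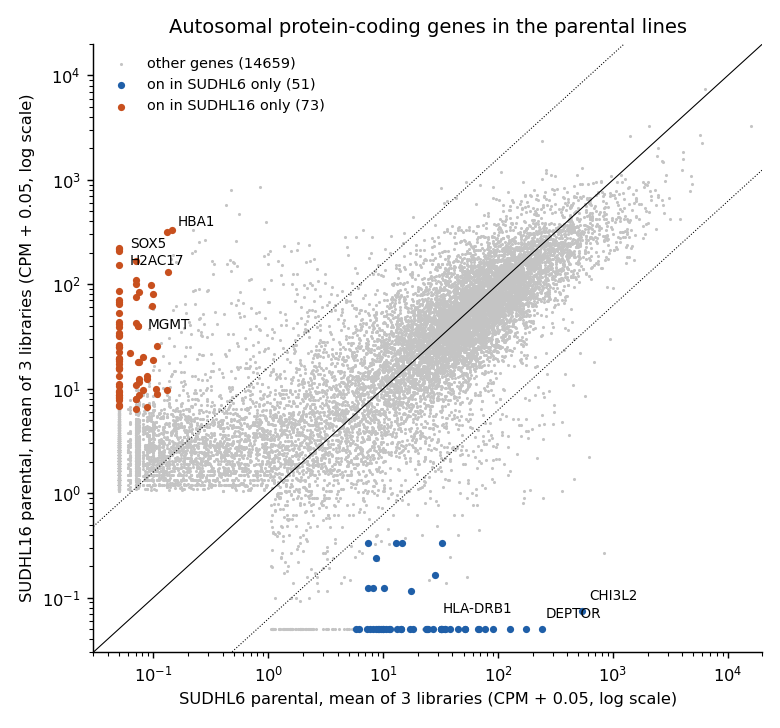
Mean CPM plus 0.05 of each gene in the 3 SUDHL6 (horizontal) and the 3 SUDHL16 (vertical) parental libraries, both on log scales, for genes at 1 CPM or more in either line; the solid line is equality and the dotted lines are 16-fold. The 51 genes on in SUDHL6 only (blue) lie near the bottom edge and the 73 on in SUDHL16 only (orange) near the left edge.

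CE-26 stood apart from the other libraries. It had 2129780 counts on the genes compared, against 12517725 to 14146899 in CE-25 and CE-27 and 29983541 to 36077588 in SUDHL6, and 31.9% of its counts fell on identifiers outside GENCODE 44. Of 3735 genes with at most 3 counts in each of the other 11 libraries, 1904 (51%) had more than 3 counts in CE-26, with a 95th percentile of 9.82 CPM and a maximum of 36.3 CPM. The like share was 0.92% to 3.22% in the other 5 parental libraries. A level of a few CPM in CE-26 was therefore common among genes without reads elsewhere, so most list counts are given below with and without it, and where 3 SUDHL16 values of a gene are listed CE-26 is the second. The biological coefficient of variation fitted over the 6 libraries was 0.374, and 0.0993 without CE-26. Fitted for each line alone, it was 0.0418 in SUDHL6 and 0.364 in SUDHL16, or 0.153 in SUDHL16 without CE-26. The p-values without CE-26 thus rest on a pooled value below that of CE-25 and CE-27.

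**Figure D2:**
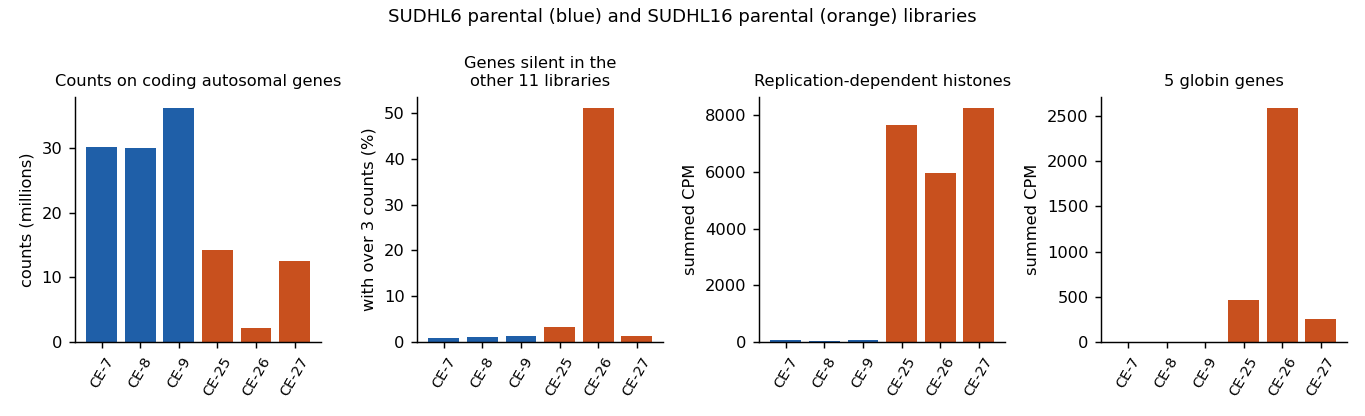
For each parental library, from left to right: counts on the genes compared, the share of genes silent in the other 11 libraries that had over 3 counts (%), and the summed CPM of the replication-dependent histone list and of 5 globin genes. CE-26 has the fewest counts (2129780), the highest share of such genes (51%) and the highest globin sum (2580 CPM), and the histone sum is between 5941 and 8231 CPM in all 3 SUDHL16 libraries.

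Both lines carried the defining transcripts of B cells. All 6 B-cell markers checked reached 5 CPM in every parental library, and MS4A1, CD79A, CD79B, PAX5 and CD22, the 5 reported here, stood at 351 CPM or more. MS4A1, which encodes CD20, was at 2317.9 ± 24 CPM (SD, n = 3) in SUDHL6 and 798 ± 57.7 CPM in SUDHL16. None of the 6 T or NK cell markers or the 6 myeloid markers reached 5 CPM in CE-7, CE-8, CE-9, CE-25 or CE-27, and in CE-26 3 of the former did.

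A gene was called on in a line at 5 CPM or more in all 3 of its libraries, and off at 3 counts or fewer in each. Of 9862 genes on in either line, 8331 (84.5%) were on in both. Of 9222 genes on in SUDHL6, 51 (0.553%) were off in SUDHL16, and of 8971 genes on in SUDHL16, 73 (0.814%) were off in SUDHL6. Without CE-26 the SUDHL6 set grew to 180 of 9222 (1.95%) and the SUDHL16 set to 76 of 9058 (0.839%). The 129 genes that joined the SUDHL6 set had 4 to 69 counts in CE-26, a median of 5.98 CPM, within the range that silent genes reached in that library. Their values there ran up to 29.5 CPM, and 19 of the 129 were higher in CE-26 than their mean in SUDHL6. Calling these 129 genes off in SUDHL16 therefore rests on leaving CE-26 out. A gene at 0 in all libraries of a line is given below as a lower bound against 3 counts over the 3 libraries, which covers counting error only.

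HLA class II genes were near 0 in parental SUDHL16. Of 21 members of the class II presentation list tested, 10 were at least 16-fold lower and none was 16-fold higher, against 2.81% and 4.55% of all genes, with a list median log2 fold change of -3.72. Without CE-26 the list median was -5.98 and 12 were lower, against 8.19% of all genes. The members described beyond HLA-DRB1, HLA-DRB5, HLA-DQB1 and HLA-DQA2 were chosen after their values were seen.

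HLA-DRA, the alpha chain of HLA-DR, stood at 822, 826 and 846 CPM in CE-7, CE-8 and CE-9 and at 0.65, 0 and 0 CPM in CE-25, CE-26 and CE-27. The groups did not overlap, and the log2 fold change was -11.36 ± 0.68 (SE, adjusted p = 8.26e-05, edgeR). HLA-DRB1, the partner beta chain (ENSG00000196126, chr6:32577902-32589848), had 174, 172 and 176 CPM in SUDHL6 and no count in any SUDHL16 library, at least 1836-fold lower in SUDHL16. HLA-DRB5 lay at 51.2, 50.8 and 52.5 CPM in SUDHL6 and had no count in SUDHL16, a bound of 544-fold.

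The other heterodimers followed. HLA-DQB1 was at 87.4, 90.2 and 93.5 CPM in SUDHL6 and at 0 in all 3 SUDHL16 libraries, at least 954-fold lower. HLA-DQA1, its alpha chain, was at 189, 189 and 195 CPM in SUDHL6 against 0.91, 2.13 and 0 CPM. HLA-DPA1 fell from 408, 420 and 406 CPM to 0.32, 8.11 and 2.30 CPM, and HLA-DPB1 from 126, 126 and 130 CPM to 0, 4.70 and 0 CPM. In both HLA-DP genes the highest SUDHL16 value was that of CE-26, below the 95th percentile of silent genes in that library. HLA-DQA2, a paralogue close to HLA-DQA1 with which it could share reads, was at 23.3 to 24.3 CPM in SUDHL6 and at 0 in SUDHL16.

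Genes that act on class II molecules differed less evenly. HLA-DMB, a chain of the peptide loader, was at 308 to 309 CPM in SUDHL6 and at 3.96, 11.5 and 5.40 CPM in SUDHL16 (log2 fold change -5.67 ± 0.39). HLA-DMA, its partner, kept 20.3, 8.54 and 20.8 CPM in SUDHL16 against 135 to 138 CPM. CD74 stayed at 403, 635 and 458 CPM against 1895 to 1962 CPM, a log2 fold change of -1.95 ± 0.19 that is below the 16-fold limit. MARCHF1, a ubiquitin ligase that removes class II from the surface, was the 1 list member called higher at 1.5-fold, at 58, 71.3 and 67.1 CPM against 30.2 to 33.5 CPM. CD83, which opposes MARCHF1, was at 130, 153 and 134 CPM against 398 to 416 CPM.

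CIITA, the coactivator, stood at 100.3, 103 and 108 CPM in SUDHL6 and at 0.46, 22.6 and 0.43 CPM in SUDHL16. Its log2 fold change was -4.60 ± 1.43 (adjusted p = 0.0356), and CE-26 decided its size, since without that library it was -7.78 (adjusted p = 1.5e-07). RFX5, a subunit of the promoter-bound complex, overlapped between the lines, at 141 to 146 CPM in SUDHL6 and 156, 56.8 and 129 CPM in SUDHL16 (adjusted p = 0.459). RFXANK, another subunit, was at 61.9 to 66.8 CPM against 36.5 to 47.8 CPM.

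In the resistant SUDHL16 libraries, which the comparison did not use, many class II genes had reads. HLA-DRA was at 198, 273 and 125 CPM in CE-28, CE-29 and CE-30, HLA-DRB1 at 151, 106 and 96.1 CPM, and CIITA at 245, 220 and 126 CPM. HLA-DQB1 remained at 0, 0.34 and 0.20 CPM there. HLA genes vary between people, and whether mismatches to the reference genome lowered any count was not tested.

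**Figure D3:**
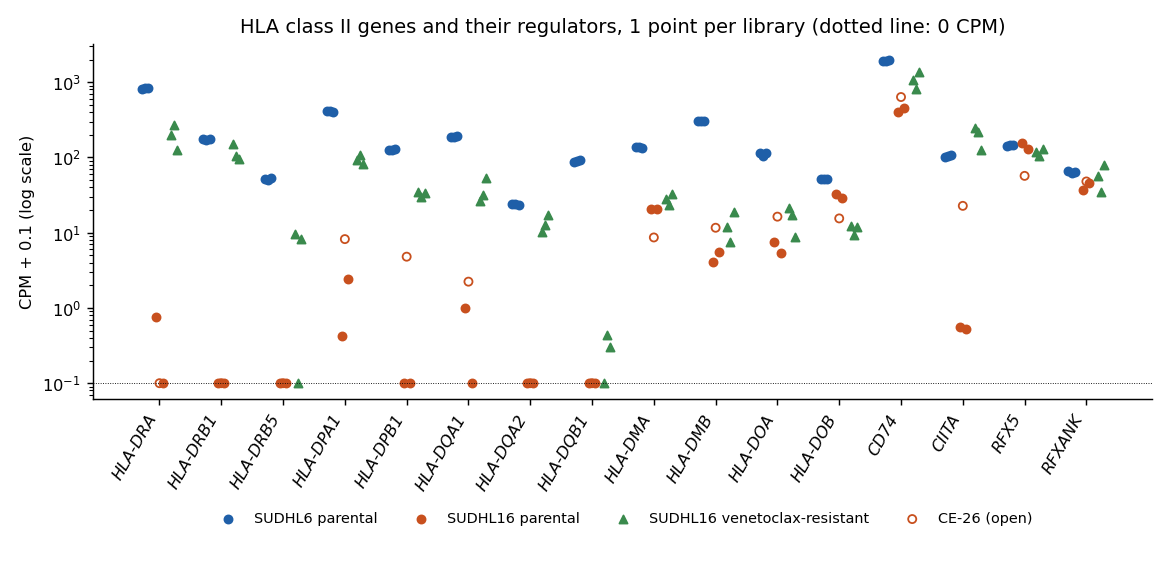
CPM plus 0.1 (log scale) of class II genes, their loaders and regulators, 1 point per library, in SUDHL6 parental (blue), SUDHL16 parental (orange, CE-26 open) and SUDHL16 resistant (green) cells; points on the dotted line are at 0 CPM. Parental SUDHL16 sits at or near 0 for HLA-DRA, HLA-DRB1, HLA-DRB5, HLA-DQA2 and HLA-DQB1, whereas CD74 stays above 400 CPM.

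Class I genes, which present peptides to cytotoxic T cells, split. Of 27 class I list members tested, 3 were 16-fold higher and 2 were 16-fold lower, with or without CE-26. The shares over all genes were 4.55% and 2.81%, and 4.2% and 8.19% without CE-26. HLA-B was at 111, 111 and 114 CPM in SUDHL6 and at 1.82, 2.13 and 1.66 CPM in SUDHL16, a log2 fold change of -5.96 ± 0.14 (adjusted p = 1.55e-05), and at 78.6 to 131 CPM in resistant SUDHL16. B2M, the light chain of class I molecules, was lower in SUDHL16, at 296 to 516 CPM against 746 to 765 CPM. MICA, a stress ligand seen by NK cells, was at 7.74 to 9.80 CPM in SUDHL6 and had no count in SUDHL16, at least 95.9-fold lower. CD1C, which presents lipids, went the other way, at 48, 61.5 and 61.2 CPM in SUDHL16 against 0.15, 0.15 and 0 CPM.

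Of 48 B-cell surface antigens tested, 8 were at least 16-fold lower in SUDHL16 and 3 higher, against 2.81% and 4.55% of all genes, and without CE-26 12 were lower and 2 higher, against 8.19% and 4.2%. TNFRSF17 (BCMA, the plasma cell receptor for BAFF and APRIL; ENSG00000048462) was at 64.5, 65.7 and 68.9 CPM in SUDHL6 and had no count in SUDHL16, a bound of 701-fold. FCER2 (CD23) was at 5.43 to 6.26 CPM against 0, at least 61-fold lower, and FCMR, the receptor for IgM, was at 23.6 to 26.5 CPM against 0, 0 and 0.29 CPM. CR2 (CD21), the complement receptor, was higher in SUDHL16, at 13.6, 16.2 and 18.1 CPM against 0.62 to 0.88 CPM. FCRL4 was at 6.50 to 11.1 CPM in SUDHL16 and 0.26 to 0.37 CPM in SUDHL6. CD70, the ligand of CD27, was at 61 to 65.2 CPM in SUDHL6 and 0, 6.41 and 0.14 CPM in parental SUDHL16, and TNFRSF13B (TACI) at 75.5 to 82.8 CPM against 0, 5.55 and 0.58 CPM. SPN (CD43) was higher in SUDHL16, at 253, 1883 and 391 CPM against 31.5 to 31.9 CPM, and CE-26 carried the highest level (log2 fold change 4.73, and 3.41 without it, below 16-fold).

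Of 48 B-cell transcription factors tested, 7 were lower and 4 higher, against 2.81% and 4.55% of all genes. Without CE-26 11 of 49 were lower and 2 higher, against 8.19% and 4.2%. IRF4, which drives activated B cells and plasma cells (ENSG00000137265, chr6:391739-411443), was at 460, 463 and 456 CPM in SUDHL6 and at 0, 3.84 and 0.14 CPM in SUDHL16. Its log2 fold change was -10.11 ± 1.08 (adjusted p = 0.000563), and without CE-26 the pooled ratio was 6724 (exact 95% interval 1861 to 55521). BATF, which binds DNA beside IRF4, was at 57.2 to 61.6 CPM against 0, 2.13 and 0 CPM. EGR2, an early response factor, was at 7.93 to 9.32 CPM against 0 in all libraries, a bound of 91.8-fold.

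Higher in SUDHL16 was TCF4, the E protein E2-2, at 407, 227 and 361 CPM against 6.20 to 6.89 CPM (log2 fold change 5.64 ± 0.28, adjusted p = 5.08e-05). ZBTB20 was at 53.4, 96.5 and 46.6 CPM against 0.18 to 0.55 CPM. AHR, the aryl hydrocarbon receptor, was at 136, 671 and 131 CPM against 14.3 to 16.5 CPM, a log2 fold change of 4.36 that fell to 3.21 without CE-26, the library with the highest level.

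The germinal centre list had 5 members lower and 3 higher among 38 tested, against 2.81% and 4.55% of all genes. Without CE-26 6 were lower and 2 higher, against 8.19% and 4.2%. CXCR4, the chemokine receptor that holds B cells in the dark zone, was at 242, 253 and 247 CPM in SUDHL6 and at 0.26, 2.13 and 0.14 CPM in SUDHL16 (log2 fold change -9.34 ± 0.61). SERPINA9 was on the other side, at 167, 152 and 176 CPM in SUDHL16 against 0.81 to 1.82 CPM. LMO2, a germinal centre factor, was at 116 to 222 CPM in SUDHL16 and 7.5 to 10.4 CPM in SUDHL6. BCL6, the master repressor of the germinal centre, was on in both lines, at 514 to 777 CPM in SUDHL16 and 215 to 228 CPM in SUDHL6 (log2 fold change 1.54 ± 0.17, adjusted p = 0.000666).

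The activated and plasma cell list had 6 of 40 members lower and 1 higher, against 2.81% and 4.55% of all genes. Without CE-26 13 of 42 were lower and 1 higher, against 8.19% and 4.2%. PIM1, a kinase that phosphorylates survival proteins, was at 604 to 622 CPM in SUDHL6 and 1.75, 4.70 and 0 CPM in SUDHL16. CFLAR, which restrains caspase-8, was the member higher in SUDHL16, at 118, 382 and 136 CPM against 1.26 to 2.17 CPM. Of 66 B-cell receptor signalling genes, 3 were higher, a share like the 4.55% of all genes, and none was lower (3 higher and 3 lower without CE-26, against 4.2% and 8.19% of all genes). RASGRP1, an activator of RAS, was at 174 to 311 CPM in SUDHL16 against 4.26 to 5.47 CPM. CD3D and CD8A, which define T cells, were at 0 or under 1 CPM in CE-25 and CE-27.

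Among the 51 genes on in SUDHL6 and off in SUDHL16, CHI3L2, a chitinase-like protein without enzyme activity (ENSG00000064886, chr1:111200771-111243440), had the largest ratio. It stood at 528, 539 and 545 CPM in SUDHL6, and a single count was found in SUDHL16, in CE-27, a pooled ratio of 17002 with an exact 95% interval of 3051 to 671565. DEPTOR, an inhibitor of the mTOR kinase, was at 245, 237 and 238 CPM against 0, at least 2528-fold lower in SUDHL16. IL17RB, a subunit of the IL-25 receptor, was at 124 to 129 CPM against 0, a bound of 1325-fold, and also had no count in the resistant SUDHL16 libraries. PI16 (72.1 to 79.2 CPM), PYHIN1 (65.6 to 71.4 CPM) and TEAD4, a DNA-binding partner of YAP (49.4 to 53.9 CPM), likewise had no count in the 6 SUDHL16 libraries, parental or resistant.

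Without CE-26, further genes with high levels in SUDHL6 joined this set. RUBCNL was at 361 to 366 CPM in SUDHL6 and at 0, 2.99 and 0 CPM in SUDHL16. ST14, a membrane serine protease, was at 232 to 258 CPM against 0, 9.82 and 0 CPM, and UCHL1, a deubiquitinase, at 164 to 169 CPM against 0, 2.99 and 0 CPM. PRDX2, a peroxiredoxin that removes hydrogen peroxide, was at 162, 159 and 171 CPM against 0.13, 2.13 and 0 CPM. NLRP11 (211 to 227 CPM) and ASZ1, a germline gene of the piRNA pathway (164 to 172 CPM), were at 0 in CE-25 and CE-27 and at 6.41 and 2.56 CPM in CE-26. All of these CE-26 values lay at or below the 95th percentile of silent genes in that library.

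Among the 73 genes on in SUDHL16 and off in SUDHL6, SOX5, a transcription factor of the SOX family (ENSG00000134532, chr12:23529504-24562544), had the largest bound. It was at 298, 142 and 234 CPM in SUDHL16 and had no count in SUDHL6, at least 7452-fold higher. MLYCD, malonyl-CoA decarboxylase of fatty acid metabolism, was at 88.3, 118 and 97.3 CPM against 0, 0 and 0.06 CPM. GTSF1, a germline gene of the piRNA pathway, was at 91.5, 73 and 86.1 CPM against 0, 0.07 and 0 CPM. CPXM1, a carboxypeptidase-like secreted protein, was at 81.6, 75.6 and 104 CPM against no count.

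MGMT, the enzyme that removes O6-methylguanine from DNA and is silenced in some lymphomas, was at 44.8, 34.2 and 47.3 CPM in SUDHL16 and at 0, 0 and 0.06 CPM in SUDHL6. The pooled ratio was 1953 (exact 95% interval 540 to 16142), and its levels in the resistant libraries, 33.1 to 44.9 CPM in SUDHL16 and 0 to 0.09 CPM in SUDHL6, kept the same order. It was chosen after its values were seen.

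**Figure D4:**
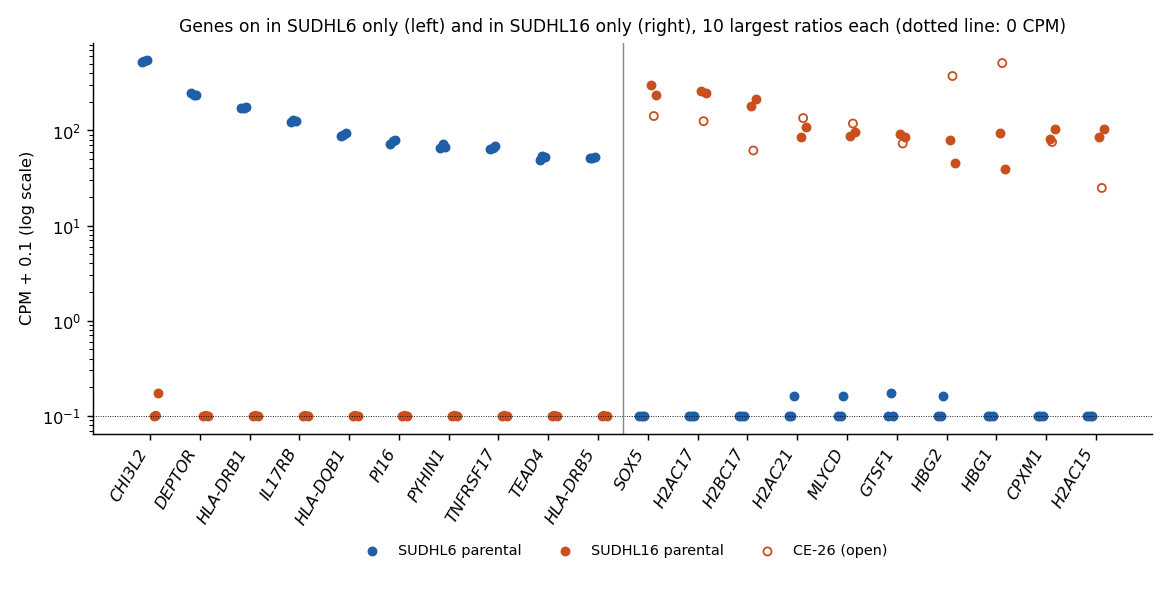
CPM plus 0.1 (log scale) of the 10 genes with the largest ratio in each direction, 1 point per parental library (SUDHL6 blue, SUDHL16 orange, CE-26 open); the dotted line is 0 CPM. Left of the grey line the SUDHL16 points sit at 0 but for 1 count of CHI3L2, and right of it the SUDHL6 points sit at 0 or at 1 or 2 counts.

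Replication-dependent histone genes, whose transcripts lack a poly(A) tail, took 10 of the 73 places. Of 49 histone genes tested, 46 were 16-fold higher in SUDHL16 and none was lower (47 and none without CE-26), and the list summed to 57.3 to 61.4 CPM in SUDHL6 against 5941 to 8231 CPM in SUDHL16. H2AC17, for example, was at 258, 125 and 247 CPM in SUDHL16 against no count. The kit of the SUDHL16 libraries works on total RNA after removal of ribosomal RNA, and how RNA was selected for the SUDHL6 libraries is not given in the sources used here, so the kit and the line cannot be told apart in this list. Leaving the histones out, the median ratio of the SUDHL16 set was 499, and that of the SUDHL6 set was 189.

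Globin genes were also in the SUDHL16 set. HBA1 was at 129, 748 and 77 CPM in SUDHL16 and at 0.04 to 0.11 CPM in SUDHL6, and HBG1, a fetal globin, at 95.1, 512 and 39.4 CPM against no count. The 5 globin genes summed to 467, 2580 and 259 CPM in CE-25, CE-26 and CE-27, the highest sum being in the library with the fewest counts, and to 250, 9.45 and 10.7 CPM in the resistant libraries CE-28, CE-29 and CE-30. HBA1 and HBA2 are near-identical copies, as are HBG1 and HBG2, and may have shared reads. Where the globin reads came from was not tested.

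LUM and DCN, small proteoglycans of connective tissue, were at 22.2, 14.5 and 17.6 CPM and at 23.3, 31.6 and 22.9 CPM in SUDHL16, against at most 0.07 CPM in SUDHL6. The collagens COL1A1 and COL3A1, which define fibroblasts, were at or below 0.07 CPM in CE-25 and CE-27 (COL3A1 at 8.11 CPM in CE-26), and in resistant SUDHL16 LUM was at 0 and DCN at 0 to 0.50 CPM. Among the 6 fibroblast and endothelial markers none reached 5 CPM in CE-25 or CE-27 and 4 did in CE-26.

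Several of the on and off genes were neighbours. Counting runs of genes next to each other among those on in a line, 3 runs were on in SUDHL6 only and 9 on in SUDHL16 only, and without CE-26 these were 9 and 9. HLA-DRB5 with HLA-DRB1 and HLA-DQB1 with HLA-DQA2 formed 2 of the SUDHL6 runs, on chromosome 6. The third was B4GALT2 with SLC6A9 on chromosome 1, the latter a glycine transporter at 16.9 to 17.6 CPM in SUDHL6, at 0 in parental SUDHL16 and at 34.1 to 47.6 CPM in resistant SUDHL16. Without CE-26, further runs, among them HOXA4, HOXA5 and HOXA7 on chromosome 7 and HOXB3, HOXB4 and HOXB7 on chromosome 17, were on in SUDHL6 only. HOXA7, the highest of these HOX genes, was at 49 to 53.4 CPM in SUDHL6 and 0, 5.55 and 0 CPM in SUDHL16. HOXB3, by contrast, was at 12 CPM in CE-26 and at 0 in CE-25 and CE-27, against 9.29 to 11.1 CPM in SUDHL6, so its call rests on leaving that library out.

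The SUDHL16 runs held 3 groups of histone genes on chromosome 6, the alpha globins on chromosome 16, and the beta-like globins HBB, HBG1 and HBG2 with TRIM6-TRIM34 on chromosome 11. EVC and EVC2, adjoining genes on chromosome 4 that serve hedgehog signalling at the cilium, were at 13.8, 27.8 and 16.3 CPM and at 11.7, 11.5 and 9.64 CPM, and both had no count in SUDHL6 or in resistant SUDHL16. SLA, an adaptor that dampens antigen receptor signalling, was at 58.2, 62.8 and 79.5 CPM, and it lies within TG on the opposite strand, at 7.86 to 11.5 CPM, so that without stated strand use their reads cannot be kept apart. OLR1 with TMEM52B and LUM with DCN, on chromosome 12, made up the rest.

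Of 55 interferon-stimulated genes tested, 12 were 16-fold higher in SUDHL16 and 3 lower, against 4.55% and 2.81% of all genes. Without CE-26 12 were higher and 7 lower, against 4.2% and 8.19%. At 1.5-fold the list was even, with 18 higher and 17 lower, and 19 on each side without CE-26. Of all genes 22.3% were higher and 24.7% lower at that limit. Without CE-26 these were 3383 and 4078 of 12138 genes. PARP14, an ADP-ribosyltransferase, was at 253, 292 and 243 CPM in SUDHL16 against 0.11 to 0.37 CPM (log2 fold change 10.11 ± 0.34, adjusted p = 2.49e-05). IFIH1, which encodes the RNA sensor MDA5, was at 41.4, 43.1 and 40.7 CPM against 0, 0 and 0.25 CPM, and EPSTI1 at 16.7 to 18.1 CPM against 0 to 0.15 CPM. SP140, a nuclear body protein of B cells, was lower, at 1.62, 0 and 2.30 CPM against 87.5 to 91.4 CPM, and APOBEC3G at 0.32, 9.39 and 0.72 CPM against 71.3 to 75.3 CPM. The list median log2 fold change was 0.20, against -0.05 for all genes.

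Sensors split by gene. In the interferon signalling and nucleic acid sensing list, 6 of 49 were higher and 1 was lower, with or without CE-26. Among those higher, CASP1, TLR3 and ZBP1 had no count in SUDHL6. They could be tested only through their SUDHL16 reads, so these counts are a description. TLR3 and ZBP1, described below, had their highest level in CE-26, within the range of silent genes there. The shares over all genes were 4.55% and 2.81%, and 4.2% and 8.19% without CE-26. CASP1, the inflammasome protease, was at 2.02, 9.82 and 2.59 CPM in SUDHL16 and had no count in SUDHL6, whereas AIM2, a DNA sensor, was at 57.6 to 60.8 CPM in SUDHL6 and 0, 2.56 and 0.29 CPM in SUDHL16.

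**Figure D5:**
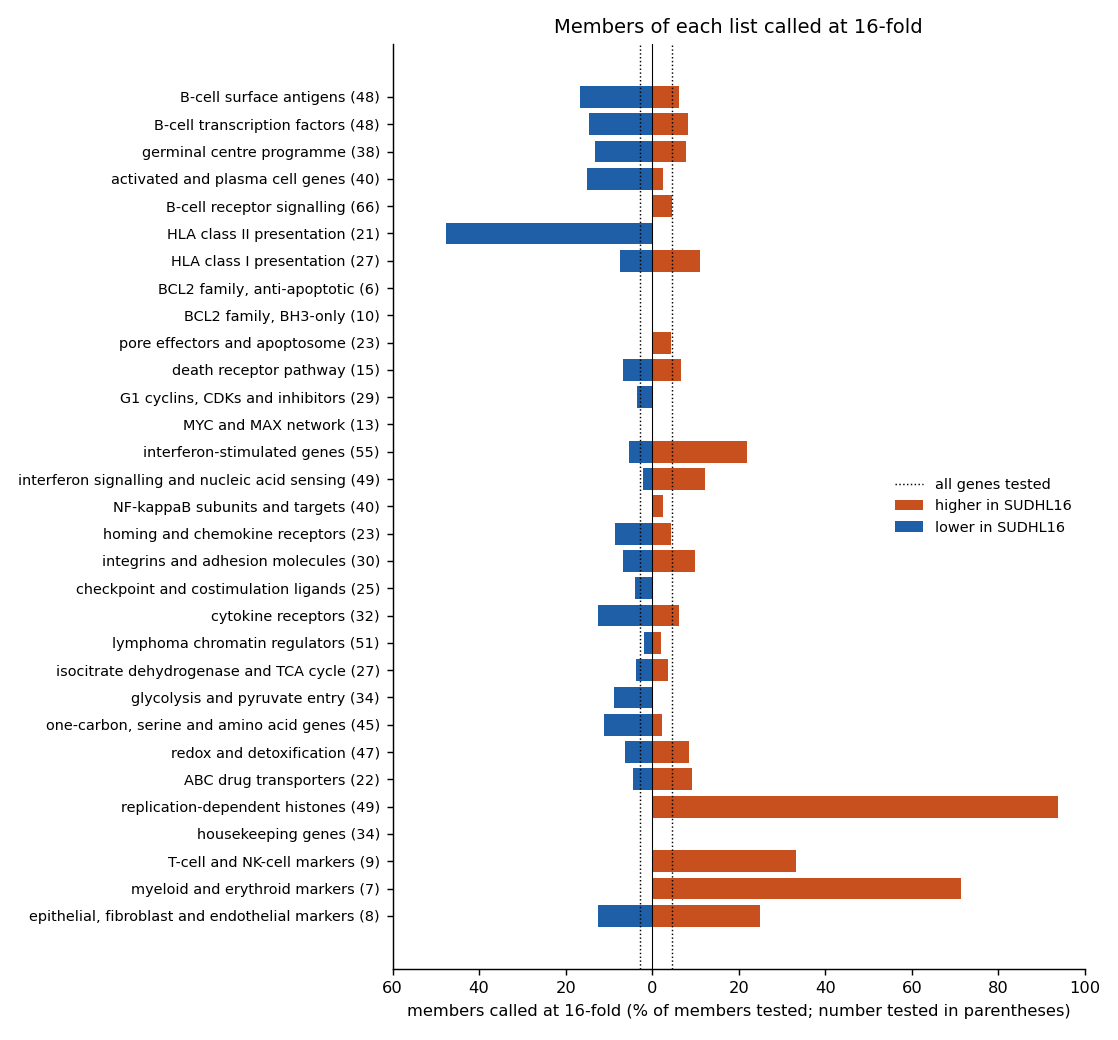
Share of tested members of each list shown that was called at 16-fold (%), to the right higher in SUDHL16 (orange) and to the left lower (blue), with the number tested in parentheses; dotted lines mark all genes tested (4.55% and 2.81%). Class II reaches 10 of 21 to the left, and histones 46 of 49 to the right.

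The BCL2 family, which the study follows, held no gene past 16-fold among 6 anti-apoptotic and 10 BH3-only members tested, and without CE-26 BIK alone of these passed, lower in SUDHL16. Of all genes 7.36% passed, and 12.4% without CE-26. BOK, a family member kept in the list of pore effectors, was at 0.74 to 1.18 CPM in SUDHL6 and 0, 6.83 and 0 CPM in SUDHL16, so that CE-26 decided its direction (log2 fold change 1.10, and -7.46 without that library). BCL2 overlapped between the lines, at 458, 454 and 455 CPM in SUDHL6 and 611, 324 and 499 CPM in SUDHL16 (log2 fold change 0.07 ± 0.23, adjusted p = 0.818). CE-26 held the lowest of these values, and without it BCL2 was higher in SUDHL16 by 0.35 on the log2 scale (adjusted p = 0.00797), short of 1.5-fold. BCL2L1, which encodes BCLX, was lower in SUDHL16, at 38.6, 17.5 and 36.1 CPM against 109 to 112 CPM (log2 fold change -1.81 ± 0.27, adjusted p = 0.00234). BCL2L2, which encodes BCLW, was higher, at 19.2, 23.5 and 23.7 CPM against 3.89 to 4.74 CPM. MCL1 was at 352 to 473 CPM against 661 to 663 CPM. Of the BH3-only genes that trigger apoptosis, BMF was lower at 96.5 to 102 CPM against 317 to 324 CPM, and BCL2L11, which encodes BIM, was higher at 149 to 202 CPM against 81.4 to 82.6 CPM. None of these differences reached the size that was weighed here. MYC was on in both lines, at 204 to 211 CPM in SUDHL16 against 327 to 329 CPM in SUDHL6.

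In metabolism, the isocitrate dehydrogenase and TCA cycle list had 1 member of 27 on each side, with or without CE-26. With upper-quartile scaling or library totals alone, 1 was higher and 0 were lower. The lower member, IDH2, lay at the 16-fold limit, so its call depended on the scaling. Of all genes 4.55% were higher and 2.81% lower, and 4.2% and 8.19% without CE-26. IDH2, the mitochondrial NADP-dependent isocitrate dehydrogenase, was at 42.4, 47.6 and 43.5 CPM in SUDHL6 and at 0.98, 9.39 and 1.87 CPM in SUDHL16 (log2 fold change -4.0 ± 0.76, adjusted p = 0.00561, and -4.91 without CE-26). In the resistant libraries it was at 72.5 to 80 CPM in SUDHL6 and 77.8 to 129 CPM in SUDHL16. One-carbon, serine and amino acid genes had 5 of 45 lower and 1 higher, against 2.81% and 4.55% of all genes. Without CE-26 these were 7 of 47 and 1, against 8.19% and 4.2%. ASS1, which makes argininosuccinate, was at 23.3 to 25.9 CPM against 0, at least 261-fold lower, and BCAT1, a branched-chain transaminase, was at 355 to 371 CPM against 1.10, 12.4 and 0.79 CPM. GLUL, glutamine synthetase, was higher in parental SUDHL16, at 54.2, 38.9 and 52.1 CPM against 0.44 to 0.63 CPM, and at 0 to 0.50 CPM in resistant SUDHL16.

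Among surface and adhesion genes, ITGB2, the beta chain of leukocyte integrins, was at 220, 181 and 292 CPM in SUDHL16 and 0.96 to 1.51 CPM in SUDHL6. ITGB1 was at 499, 357 and 472 CPM against 17.3 to 19.6 CPM, and CSF2RB, the shared beta chain of the IL-3, IL-5 and GM-CSF receptors, at 251, 146 and 232 CPM against 0.48 to 1.37 CPM. NECTIN1 was lower, at 0.65, 5.55 and 2.02 CPM against 122 to 125 CPM. INSR, the insulin receptor, was at 132 to 139 CPM in SUDHL6 and 0.46, 14.5 and 0.36 CPM in SUDHL16. The integrin and adhesion list had 3 of 30 higher and 2 lower, and without CE-26 3 of 31 higher and 8 lower, and the cytokine receptors 2 of 32 higher and 4 lower, and 2 of 33 and 8. Of all genes 4.55% were higher and 2.81% lower, and 4.2% and 8.19% without CE-26. None of the 34 housekeeping genes tested passed 16-fold in either direction, with or without CE-26.

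Some stress and cell cycle genes were also far apart. SESN3, a sestrin that restrains mTOR signalling, was at 287, 179 and 279 CPM in SUDHL16 and 1.33 to 2.28 CPM in SUDHL6 (log2 fold change 7.16 ± 0.33, adjusted p = 4.7e-05). SPATA18, which acts in mitochondrial quality control, was at 30.9, 26.9 and 24 CPM against 0 to 0.12 CPM. Of 29 G1 cyclins, CDKs and inhibitors tested CCND1 alone passed (2 genes did without CE-26), at 0.70 to 1.45 CPM in SUDHL6 and with no count in SUDHL16. None of 13 members of the MYC and MAX network passed with all 6 libraries, and 1 did, lower, without CE-26. Of all genes 7.36% passed, and 12.4% without CE-26. BIRC7, an inhibitor of apoptosis protein, was the member of the pore effector and apoptosome list that passed, with no count in SUDHL6 and 2.15, 4.7 and 2.95 CPM in SUDHL16.

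Among 51 lymphoma chromatin regulators 1 passed on each side, with or without CE-26. Of all genes 4.55% were higher and 2.81% lower, and 4.2% and 8.19% without CE-26. HDAC9, a class IIa histone deacetylase, was at 215, 101 and 167 CPM in SUDHL16 and 0.33 to 0.55 CPM in SUDHL6 (log2 fold change 8.47 ± 0.41, adjusted p = 5.05e-05). BCL7A, a subunit of the SWI/SNF remodelling complex, was at 440 to 453 CPM in SUDHL6 and 7.86, 15.4 and 8.99 CPM in SUDHL16. Both held their direction in the resistant SUDHL16 libraries, where HDAC9 was at 159 to 187 CPM and BCL7A at 119 to 132 CPM.

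Of 47 redox and detoxification genes, 4 were higher and 3 lower, against 4.55% and 2.81% of all genes. Without CE-26 4 of 48 were higher and 6 lower, against 4.2% and 8.19%. GSTO1, an omega-class glutathione transferase, was at 69.3, 38.9 and 63.4 CPM in SUDHL16 and 1.94 to 2.63 CPM in SUDHL6, and GSTM1, a mu-class one whose paralogues may share its reads, at 20.8, 12.4 and 20.8 CPM against 0.56 to 0.82 CPM. MGST2, a microsomal transferase, was at 11.2, 12.4 and 15.6 CPM against 0 to 0.11 CPM. GSTA4 went the other way, at 2.72 to 3.27 CPM in SUDHL6 and with no count in SUDHL16. GPX7, a peroxidase of the endoplasmic reticulum, was at 19.3 to 20 CPM in SUDHL6, at 0, 1.71 and 0 CPM in parental SUDHL16 and at 15.8 to 28.4 CPM in resistant SUDHL16.

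In glycolysis, 3 of 34 genes were lower and none was higher (4 and none without CE-26), the 3 being ENO2, SLC2A3 and LDHD. Of all genes 2.81% were lower and 4.55% higher, and 8.19% and 4.2% without CE-26. ENO2, the neuronal enolase, was at 26.4 to 29.4 CPM in SUDHL6 and 0.13, 0 and 0.22 CPM in SUDHL16, and SLC2A3, the glucose transporter GLUT3, at 21.9 to 23.6 CPM against 1.04, 1.71 and 1.01 CPM. LDHD, a D-lactate dehydrogenase, was at 0.85 to 1.48 CPM against no count. Of the amino acid list, GPT2, the mitochondrial alanine transaminase, was at 155 to 163 CPM against 2.27, 10.2 and 0.79 CPM, and at 77.5 to 94.9 CPM in resistant SUDHL16. PCK1, which makes phosphoenolpyruvate, was the member of the TCA cycle list higher in SUDHL16, at 3.38, 18.4 and 3.88 CPM against 0 to 0.11 CPM.

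Of 22 ABC transporters tested, which export lipids, peptides and drugs, 2 were higher and 1 was lower, against 4.55% and 2.81% of all genes. Without CE-26 2 of 25 were higher and 3 lower, against 4.2% and 8.19%. ABCB4, a phospholipid exporter, was at 8.71, 6.41 and 9.57 CPM in SUDHL16 and 0.29 to 0.56 CPM in SUDHL6. ABCB9, a lysosomal peptide transporter, was at 19.6, 56.8 and 33.8 CPM against 1.45 to 2.5 CPM, and its log2 fold change of 4.09 was 3.72 without CE-26, below 16-fold. ABCA3 was at 8.04 to 9.88 CPM in SUDHL6 and 0.33, 0 and 0.22 CPM in SUDHL16.

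Of 23 homing and chemokine receptors, 1 was higher and 2 were lower, against 4.55% and 2.81% of all genes. Without CE-26 1 of 24 was higher and 5 lower, against 4.2% and 8.19%. CNR1, a cannabinoid receptor, was at 68.3 to 73.5 CPM in SUDHL6 and 0.98, 4.7 and 0 CPM in SUDHL16. ACKR3, a decoy receptor for CXCL12, had no count in SUDHL6, 0.98, 2.56 and 1.8 CPM in parental SUDHL16 and 20.7 to 44.3 CPM in resistant SUDHL16. CD82, a tetraspanin, was at 102, 37.6 and 181 CPM in SUDHL16 against 2.5 to 2.89 CPM. IL12RB2, a chain of the IL-12 receptor, was at 15.1, 8.97 and 14.6 CPM against 0.25 to 0.45 CPM, and FGFR1 at 0.59, 8.97 and 0 CPM against 81.3 to 85.9 CPM.

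Of the T-cell and NK-cell list, 9 of 35 genes had enough reads to be tested, and 3 were 16-fold higher in SUDHL16, among them GATA3 and KLRD1 (4 of 10 without CE-26). Of all genes 4.55% were higher, and 4.2% without CE-26. A member near 0 in SUDHL6 could be tested only through its SUDHL16 reads, so these counts are a description. GATA3, a factor of T helper cells, was at 4.09, 2.99 and 5.11 CPM with no count in SUDHL6. KLRD1 was at 0.65, 7.69 and 1.15 CPM, of which the CE-26 value lay within the range of silent genes in that library. TLR3 and ZBP1, nucleic acid sensors with no count in SUDHL6, had the same profile, each at 8.11 CPM in CE-26 and under 1 CPM in CE-25 and CE-27.

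The resistant libraries, made with the same kit per line but not used for these calls, kept the order for most of these genes. Of the 51 genes on in parental SUDHL6 only, 39 were called 16-fold lower in resistant SUDHL16 than in resistant SUDHL6, where 6.16% of 12005 genes were called lower and 3 (SLC6A9, ALPL and SH3BP5) had the opposite sign (ALPL and SH3BP5 named after their values were seen), while 23 were both on and off by the same limits. Of the 73 on in parental SUDHL16 only, 59 had enough reads to be tested and 58 were called 16-fold higher, against 5.18% of all genes, with none of opposite sign. A gene near 0 in SUDHL6 had enough reads only through the SUDHL16 libraries, so that filter largely set the 58 of 59 in advance. By the same limits, 44 of the 73 were on in resistant SUDHL16, 50 were off in resistant SUDHL6 and 30 were both. Since the kit differs between the lines there too, this does not separate the line from the kit.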

How the data were processed

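RNA from 3 libraries each of parental SUDHL6 and SUDHL16 cells was compared, with 3 resistant libraries of each line as a second look. The authors trimmed reads with Trim Galore, aligned them to GRCh38 with HISAT2 and assembled transcripts with StringTie, and deposited 1 file of raw read counts per gene per library. The counting tool, its annotation and its use of strand are not given in the sources used here. Symbols and positions came from GENCODE 44, which matched 56558 of 60675 identifiers. Counts of the 18690 autosomal protein-coding genes entered edgeR 4.0.16 (filterByExpr, TMM factors, quasi-likelihood F test), and p-values were adjusted by Benjamini and Hochberg over all genes tested. Total counts per library ranged from 4131927 to 40885665. Called means an adjusted p under 0.05 and at least 1.5-fold, as in the study, or 16-fold. On means at least 5 CPM, off at most 3 counts, in every library. Ratios of pooled counts have exact 95% intervals, which cover counting error only. The script was tested on simulated counts. Alternatives were DESeq2 1.42.0, limma 3.58.1 voom, other scalings, filters and limits, and each library left out. Named were the 10 largest ratios per direction with and without CE-26, genes of runs, up to 3 members per direction of each list called at 16-fold, BCL2 family genes, MYC, BCL6 and IDH2, and others marked as such. The members and the 32 lists were chosen with earlier results of these data known, and no list was tested as a set. Results for some genes are not reported here.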

Additional observations from a re-analysis of the deposited data

Results flagged for a closer look

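For 25 of the 189 named genes with a value in both comparisons, the difference between SUDHL16 and SUDHL6 was itself different in parental and resistant libraries (edgeR quasi-likelihood test of the interaction over all 12 libraries, adjusted over 12598 genes, at 16-fold). Over all genes 264 of 12598 passed these limits. Most of the 189 were named for large differences in the parental libraries, which this test uses again. The 25 of 189 is therefore no independent result and is not to be set against the share over all genes. The values below are the parental minus the resistant log2 difference, and those of genes at 0 in a group depend on the prior count and are no bounds.

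The HLA genes with CIITA made up 10 of them, each with less RNA in parental than in resistant SUDHL16, relative to SUDHL6. The value was -14.58 for HLA-DRB1, -10.98 for HLA-DQA2, -10.20 for HLA-DRB5 and -9.60 for HLA-DRA. It was -6.52 for HLA-DPB1, -5.69 for HLA-DPA1, -5.96 for HLA-DQA1 and -5.53 for HLA-DQB1. CIITA stood at -5.71 and HLA-B at -5.71.

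Among surface genes and transcription factors the values were -7.20 for CD70, -7.20 for MICA, -7.05 for TNFRSF17, -5.22 for TNFRSF13B, -6.93 for EGR2, -5.28 for IRF4 and -4.22 for BATF. CD70, for example, was at 0, 6.41 and 0.14 CPM in parental SUDHL16 and at 64.3 to 86.7 CPM in resistant SUDHL16.

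Among transport, redox and metabolic genes they were -12.61 for SLC6A9, -7.94 for GPX7, -6.27 for PRDX2, -5.07 for GPT2, -5.06 for ENO2 and -4.56 for IDH2. GLUL (8.82) and AHR (7.38) went the other way, with more RNA in parental than in resistant SUDHL16, relative to SUDHL6. AHR was at 136, 671 and 131 CPM in parental and 2.07 to 4.24 CPM in resistant SUDHL16.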

How the results depend on the processing

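The 1502 values of the 189 named genes under the alternatives were compared by sign and by an adjusted p under 0.05, without a fold limit. Of these, 1395 kept their direction and their side of 0.05. A further 81 were no longer under 0.05, 21 came under it and 5 changed sign. A gene that fell below 16-fold could therefore still count as kept. The changes of sign were RFX5 (0.048, adjusted p = 0.626), BBC3 (-0.63, adjusted p = 0.0715) and BOK (-7.46, adjusted p = 0.00213) without CE-26, BCL2 without CE-25 (-0.19, adjusted p = 0.478) and ACTB without CE-27 (-0.029, adjusted p = 0.92), all by edgeR, and the cause was not tested. Leaving out a SUDHL6 library gave at most 0.0811 for BCL2 and 0.23 for ACTB, and leaving out CE-26 gave the highest values, 0.35 (adjusted p = 0.00797) and 0.48 (adjusted p = 0.00078). Genes past 16-fold, 872 in all, numbered 1504 without CE-26 and 298 with glmTreat, which tests against the 16-fold limit itself, and 667 to 1504 over the libraries left out. Those higher in SUDHL16 numbered 209 with glmTreat and 447 to 644 over the libraries left out. Those lower numbered 89 with glmTreat, 756 with voom weights, 994 without CE-26, 220 without CE-9, 222 without CE-8 and 224 without CE-7. Genes on in SUDHL6 only, 51, were 180 without CE-26 (51 to 180 over the libraries left out), 139 with an off limit of 10 counts, 115 with an on limit of 1 CPM and 24 with 20 CPM. Genes on in SUDHL16 only, 73, were 39 with an off limit of 0 counts, 147 with 10, 132 with an on limit of 1 CPM and 29 with 20 CPM. Removing medians by length and GC class left 538 genes higher and 330 lower. CE-26 limits what can be called off: 3 counts there stand for 1.28 CPM, against 0.0926 to 0.216 CPM in the other parental libraries. No paired analysis was possible because the labels give the libraries no replicate numbers, and numbers given in accession order pair nothing.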
